A study of Drosophila melanogaster with 6 samples.

Results

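The baseline transcriptome of the wild-type adult Drosophila melanogaster midgut was described from 3 RNA sequencing libraries, taken from a series of 6 that also holds midguts with RNA interference against the small GTPase Rab11. The 3 libraries are all those whose title and genotype label say wild type, and the knockdown libraries were not compared with them. Of the 15391 rows of the count table, 12501 had at least 1 read in a wild-type library. A gene was described when its mean over the 3 libraries reached 10 CPM, its count divided by the library total and scaled to 1000000, which 5509 genes did.

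Midguts were dissected from adult flies that had been moved to 29 °C for 5 days, beginning 5 days after they emerged from the pupa, on a low-yeast cornmeal and molasses food. The labels give no driver, construct, sex, strain or number of guts for the wild-type flies, and nothing says that the 3 libraries came from separate groups of flies. The spread between them may therefore be technical. The labels write enterocyte as the cell type but midgut as the source, and RNA was extracted from whole dissected guts. The labels name Ion Torrent and Illumina protocols without saying which library was made with which.

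The fly midgut is a tube of epithelium wrapped in muscle. Most of its epithelial cells are enterocytes, which secrete digestive enzymes into the lumen and absorb the products, and the others are stem cells, their immature daughters and hormone-secreting enteroendocrine cells. Trypsins and the chymotrypsin-like Jonah enzymes cut dietary protein, carboxypeptidases and aminopeptidases trim the fragments, amylase and maltases break starch and sugars, and lipases release fatty acids. A chitin-rich layer, the peritrophic matrix, separates food and microbes from the cells, and the Imd pathway, which senses bacterial peptidoglycan, is the main immune pathway of the gut.

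The libraries held 10109091, 9906918 and 30610335 counts for replicates 1, 2 and 3, so that a mean of 10 CPM corresponds to about 101.1, 99.1 and 306 reads. Reads were detected for 10478, 10342 and 11635 genes. Genes at or above 10 CPM held 98.7% ± 0.34 (SD, n = 3) of all counts. With these depths a share of 20% has a 95% Wilson interval of at most 0.0249 percentage points on either side, and 3 counts, the limit set by a count of 0, correspond to 0.297, 0.303 and 0.098 CPM. These limits cover counting error only. Replicate 3 stood apart from replicates 1 and 2. Across the 5509 genes, the Pearson correlation of log2 CPM, with 1 added to each CPM, was 0.957 between replicates 1 and 2. It was 0.898 between 1 and 3 and 0.892 between 2 and 3. The chi-square per gene was 104 between replicates 1 and 2, 446 between 1 and 3 and 435 between 2 and 3, so that the libraries differed by more than counting error and none was merged with another. That does not show that they came from separate RNA samples. In these bulk samples, a lower level can come from fewer cells of a type or from less RNA per cell, and the options cannot be told apart.

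Markers of midgut cells were present. All 6 enterocyte markers passed 10 CPM, and their summed level was 2631, 2424 and 3261 CPM in replicates 1, 2 and 3. The brush border myosin Myo61F had 1827, 1503 and 1856 CPM, and Myo31DF, the gene whose older name was given to the enterocyte driver Myo1A, had 281, 292 and 405 CPM. The intestinal GATA factor GATAe had 287, 302 and 185 CPM. The 13 stem cell and enteroblast markers summed to 56.9, 95.6 and 66.1 CPM, and only esg and klu of that list passed 10 CPM. Of the 18 enteroendocrine markers 9 passed 10 CPM, with a sum of 368, 382 and 547 CPM, and the peptide hormone gene Tk had 49.0, 55.2 and 64.4 CPM. The copper cell and middle midgut list summed to 448, 561 and 567 CPM.

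Markers of neighbouring tissues were present too. The 18 visceral muscle markers summed to 610, 776 and 1883 CPM, and 15 of them passed 10 CPM, with muscle myosin Mhc at 110, 129 and 419 CPM. The Malpighian tubule list, for the excretory tubules that join the gut at its posterior end, summed to 994, 1030 and 2014 CPM, much of it in the proton pump subunit gene Vha100-5 at 739, 662 and 689 CPM. Urate oxidase, Uro, had 65.1, 143 and 256 CPM. By column totals both lists were highest in replicate 3, as were 14 of the 16 marker lists and 66.7% of all 5509 genes. With TMM, a scaling that aligns most genes between libraries, 40.7% of all genes were, and the lists were not ranked again. Fat body markers summed to 416, 488 and 673 CPM, but the storage and fat body protein genes Lsp1alpha, Lsp1beta, Lsp1gamma, Lsp2, Fbp1 and Fbp2 and the odorant-binding protein gene Obp99b did not exceed 1.01 CPM in any library. The most abundant member was the fatty acid synthase CG3523, now FASN1, at 223, 210 and 322 CPM. Haemocyte markers summed to 5.94, 6.06 and 31.8 CPM with eater and He at 0, and neuron markers to 10.7, 11.8 and 16.6 CPM. Of the 17 testis and accessory gland markers 14 were at 0 in every library, and the list's sum did not exceed 0.229 CPM. Of the 17 ovary markers only BicD passed 1 CPM. Their parts in the differences between libraries were not tested.

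**Figure D1:**
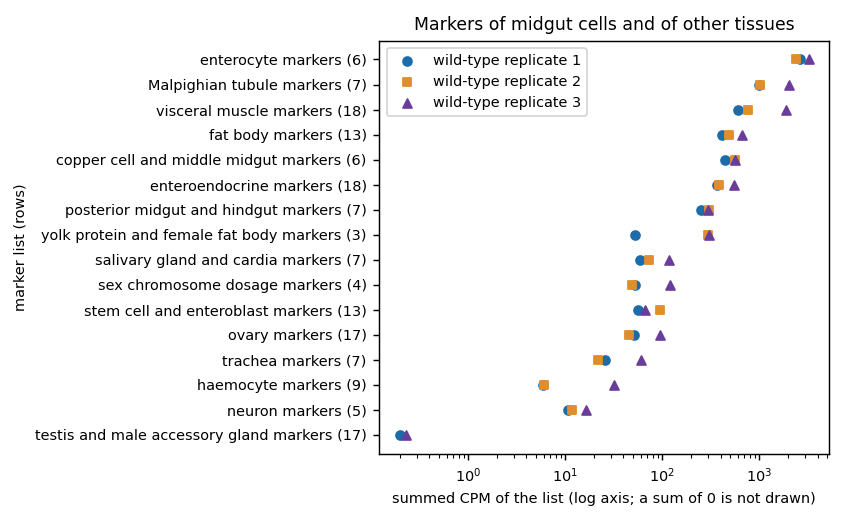
Summed CPM of each marker list (log axis) in the 3 wild-type libraries, with the number of rows in each list. The enterocyte list sits between 2424 and 3261 CPM. By column totals 14 of the 16 lists are highest in replicate 3, as are 66.7% of all genes.

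Counts were concentrated in few genes. The 12 genes at or above 10000 CPM took 20.8% of the counts, the 151 genes from 1000 to 10000 CPM took 32.9%, the 1138 genes from 100 to 1000 CPM took 29.98%, and the 4208 genes from 10 to 100 CPM took 15.01%. The 20 leading genes held 26.1%, 28.7% and 23.8% of the counts in replicates 1, 2 and 3, with a mean of 26.2% ± 2.46 (SD, n = 3). The 100 leading genes held 47.4%, 50.1% and 40.01%. To reach 50% of the counts took 114, 96 and 179 genes, and to reach 90% took 1863, 1884 and 2474 genes. Replicate 3 thus spread its reads over more genes than the other libraries. Of the 100 leading genes, 37 belonged to the digestion lists and 39 to the translation lists, against 4 for transport and none for defence.

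The order at the top was partly shared between libraries. When each library was ranked on its own, 7 of the 10 leading genes, 17 of the 20 and 67 of the 100 were common to all 3. Replicates 1 and 2 shared 89 of their 100 leading genes, and each shared 73 with replicate 3. Of the 30 genes with the highest mean CPM, 21 were lowest in replicate 3, 17 were highest in replicate 2, 9 were highest in replicate 1 and 4 in replicate 3. By column totals 18.7% of all 5509 genes were lowest and 66.7% highest in replicate 3. These shares depend on the scaling: 42.0% of all genes and 25 of the 30 were lowest in replicate 3 with TMM, a scaling of library sizes that aligns most genes between libraries.

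**Figure D2:**
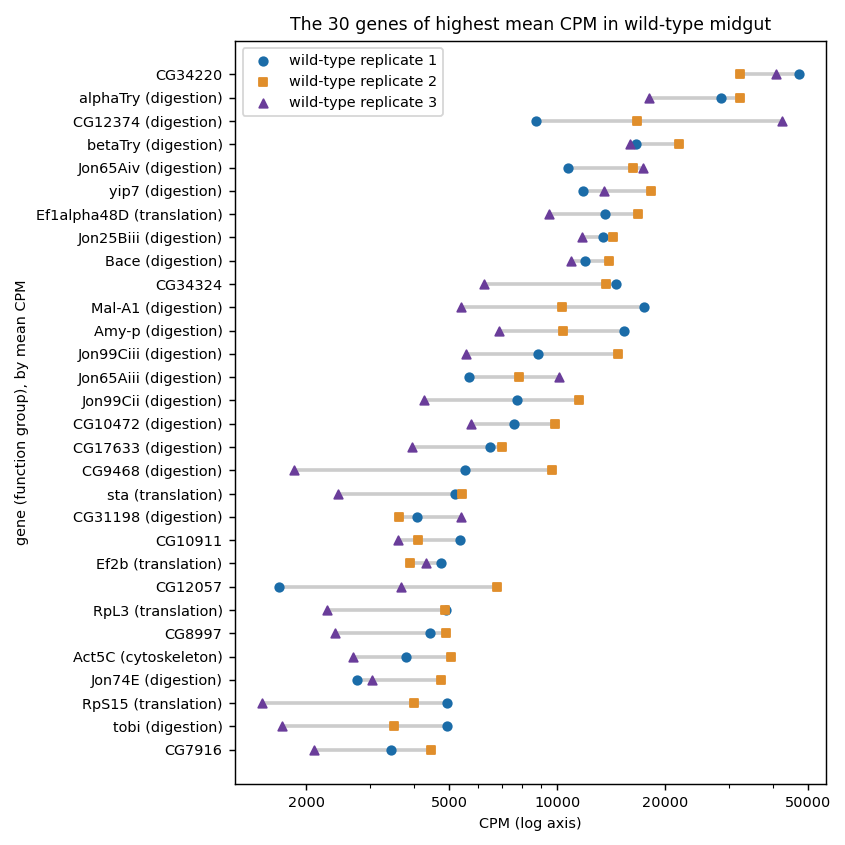
CPM (log axis) of the 30 genes with the highest mean in wild-type midgut, one symbol per library and a grey line from the lowest to the highest, with the function group in brackets. Of the 30, 18 are digestion genes and 5 translation genes, and 21 are lowest in replicate 3.

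CPM grows with transcript length, so that the rank by CPM orders genes by their share of reads. For levels between genes, counts were also divided by the length of the gene's exons and scaled to 1000000 per library, called per-kb level below. By share of reads, the first gene was CG34220, on arm 2R, with 47224, 32195 and 40585 CPM, a mean of 40001 ± 7531 (SD, n = 3), or 4.0% of the counts. The annotation used here names it by number only. The trypsin gene alphaTry came first on the per-kb scale, at 43465 ± 10569 (SD, n = 3). The next means per kb, betaTry at 24207 ± 3523 and CG34220 at 24081 ± 4831, differed by less than their spread, and CG34220 was above betaTry in replicates 1 and 3. Of the 15 genes with the highest per-kb level, 13 were digestive enzymes and the others were CG34220 and CG34324, and 9 of the 15 were serine proteases.

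Digestion was the largest of the 8 function groups. Its 178 rows held 25.9%, 30.99% and 24.8% of the counts in replicates 1, 2 and 3, a mean of 27.2% ± 3.31 (SD, n = 3), of which 103 genes passed 10 CPM. On the per-kb scale the share was 33.7% ± 3.50. Serine proteases, with 46 of 62 rows above 10 CPM, alone took 14.2%, 19.1% and 13.8%, and replicate 2 was highest. Carboxypeptidases and aminopeptidases, with 16 of 25 rows above 10 CPM, took 2.73%, 3.74% and 6.38%, and replicate 3 was highest. Carbohydrases took 6.61%, 5.67% and 2.54%, and replicate 3 was lowest. Lipases took 0.976%, 0.920% and 0.824%, and aspartic proteases and cathepsins took 1.37%, 1.54% and 1.23%. Few counts fell on digestive lysozymes: 2 of 15 passed 10 CPM, and the list held 0.0067% ± 0.0025 of the counts. LysP, at 36.8, 0 and 2.87 CPM, passed only through replicate 1. How reads were divided among the Lys genes was not examined, so their levels are uncertain.

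Among serine protease genes, the trypsin gene alphaTry had the largest share of reads. It had 28631, 32300 and 17953 CPM, lowest in replicate 3. betaTry had 16551, 21891 and 15994 CPM, highest in replicate 2. Of the 12 genes named Try, 10 passed 10 CPM, and gammaTry and deltaTry did not, at means of 0.0439 and 6.03 CPM. These genes lie close together and are much alike, so the way reads were divided among alphaTry, betaTry, gammaTry and deltaTry is uncertain, and the family sum of 4.93%, 5.96% and 3.93% of the counts rests on that division less.

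The Jonah family with yip7, 17 rows of which 16 passed, took 7.25%, 10.3% and 8.01% of the counts. Jon65Aiv had 10730, 16239 and 17371 CPM, with replicates 2 and 3 close together above replicate 1. yip7 had 11774, 18257 and 13517 CPM, highest in replicate 2. Jon25Biii had 13417, 14327 and 11736 CPM, and was among the least variable of the leading genes, with a coefficient of variation (CV, the SD over the mean of the 3 libraries) of 0.0999. Jon99Ciii had 8831, 14717 and 5581 CPM and Jon99Cii had 7710, 11529 and 4265 CPM, and both were highest in replicate 2 and lowest in replicate 3. Reads of these neighbouring Jon99C copies are uncertain in the same way. Within the family the range ran from a mean of 123 CPM for Jon66Ci to 14780 CPM for Jon65Aiv, and Jon66Cii stayed under the minimum at 9.14 CPM.

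Outside the serine proteases, CG12374, listed as a carboxypeptidase, had 8718, 16637 and 42152 CPM, the highest value of any gene in replicate 3 and 4.84 times its value in replicate 1. It made up 52.5% of its list. CG17633, of the same list, had 6494, 7036 and 3932 CPM, lowest in replicate 3. The neighbouring aminopeptidases on arm 3R, CG31198, CG31343 and CG31233, together held 0.777%, 0.854% and 1.24% of the counts, and each was highest in replicate 3. The aspartic protease Bace had 11914, 13975 and 10916 CPM and made up 88.9% of its list. The lysosomal cathepsins CtsB1, Cp1 and cathD followed, with means of 864, 378 and 287 CPM.

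Replicate 3 was lowest for 18 of the 22 carbohydrases that passed 10 CPM, against 18.7% of all genes by column totals. With TMM it was lowest for 19 of the 22, against 42.0% of all genes. The maltase Mal-A1 had 17472, 10328 and 5405 CPM. The amylase Amy-p had 15375, 10386 and 6867 CPM. Both had replicate 1 highest and replicate 3 lowest. All 7 Mal genes above 10 CPM were lowest in replicate 3, and the family held 3.39%, 2.19% and 1.16% of the counts, while Mal-A5, Mal-B1 and Mal-B2 stayed under the minimum.

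The second amylase gene, Amy-d, had 317, 4110 and 137 CPM, with replicate 2 far above the others, and the largest CV of any gene at 100 CPM or more, 1.47. Amy-p and Amy-d are near-identical copies, so the division of reads between them is uncertain. From replicate 1 to 2 Amy-p fell while Amy-d rose, and both were lowest in replicate 3. With Amyrel, the amylases held 1.58%, 1.46% and 0.701% of the counts. The part of read division in the spread of Amy-d was not tested. The alpha-mannosidase CG9468 had 5519, 9648 and 1842 CPM, and the alpha-glucosidase tobi had 4920, 3501 and 1712 CPM. Among the lipases, CG6295 had 3928, 1681 and 4287 CPM and mag, a lipase that digests triglyceride in the lumen, had 2459, 3583 and 1791 CPM. CG17192, also a lipase of the list, had 120, 86.8 and 876 CPM, with replicate 3 above the others.

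**Figure D3:**
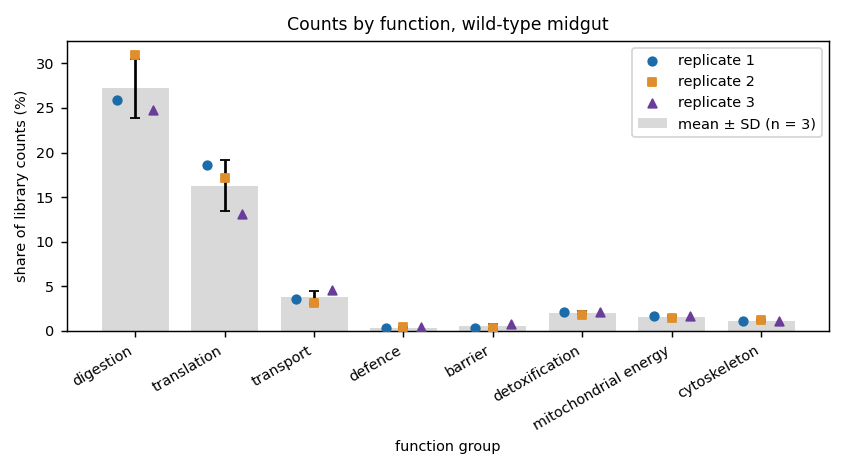
Share of library counts (%) in 8 function groups, with bars for the mean, error bars for the SD over 3 libraries and a symbol for each library. Digestion (27.2%) and translation (16.3%) are the largest groups, and defence (0.342%) is the smallest.

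Translation was the second group, with 18.6%, 17.2% and 13.1% of the counts, a mean of 16.3% ± 2.85 (SD, n = 3), and 215 of 255 genes above 10 CPM. On the per-kb scale its share was 22.1% ± 3.01. Cytosolic ribosomal proteins held 15.2%, 13.7% and 10.1%, and 84 of 92 rows passed. Of these 84, 56 were lowest in replicate 3 by column totals, against 18.7% of all genes. With TMM 72 were lowest there, against 42.0% of all genes. sta, which encodes a small-subunit protein, had 5201, 5418 and 2455 CPM, RpL3 had 4895, 4865 and 2290 CPM, and RpS15 had 4915, 3981 and 1506 CPM. All of them were lowest in replicate 3, but RpL5, at 3379, 2716 and 3613 CPM, was not. The 8 ribosomal rows under the minimum are second copies of ribosomal protein genes, among them RpL37b, RpL22-like, RpL10Aa, RpS28a, RpS5b, RpS19b and RpS10a.

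Translation factors held 3.0%, 3.10% and 2.56%, of which 46.1% lay in Ef1alpha48D, the elongation factor that delivers aminoacyl-tRNA to the ribosome, at 13618, 16802 and 9506 CPM. Ef2b, the translocation factor, had 4730, 3898 and 4319 CPM, a narrow range. The initiation helicase eIF-4a had 2071, 1794 and 1805 CPM. Aminoacyl-tRNA synthetases held 0.199% ± 0.0158 and mitochondrial ribosomal proteins 0.149% ± 0.0124, with 63 of 75 of the latter above 10 CPM. The most abundant mitochondrial member, mRpL28, had 65.2, 64.6 and 62.1 CPM.

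Transport held 3.62%, 3.15% and 4.55% of the counts, a mean of 3.77% ± 0.708 (SD, n = 3), with 148 of 210 genes above 10 CPM and replicate 3 highest for 123 of them, where 66.7% of all genes were highest in replicate 3. With TMM replicate 3 was highest for 101 of the 148 and for 40.7% of all genes. Some of the 148 passed 10 CPM only through replicate 3, such as CG7888 at 2.77, 7.87 and 39.3 CPM. Per kb the share was 2.36% ± 0.472, lower than by counts. The median exonic length of transport genes was 2550 bases, close to 2304 for all genes above 10 CPM. Digestion and translation genes were shorter, with medians of 1338 and 1076 bases. The vacuolar ATPase, the proton pump of intracellular organelles and of the acid-secreting copper cells, took 1.34%, 1.34% and 1.69%. Its membrane ring subunit gene Vha16-1 had 3255, 2803 and 3840 CPM, and its catalytic subunit genes Vha68-2 and Vha55 had means of 2051 ± 182 and 1526 ± 67.8 CPM. The ferritin genes Fer2LCH and Fer1HCH, for iron storage, lie side by side and had 2948, 2512 and 1854 CPM and 2182, 1829 and 1999 CPM.

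Other ion pumps and carriers of nutrients were more variable. The sodium pump subunit Atpalpha had 651, 613 and 1507 CPM, and the calcium pump PMCA had 101, 99.6 and 620 CPM, both highest in replicate 3. PMCA lies on chromosome 4, where 43 of the 44 genes above 10 CPM were highest in replicate 3. The amino acid and peptide carriers held 0.206%, 0.171% and 0.314%, and CG2930 made up 50.7% of that list, at 1187, 862 and 1459 CPM. The amino acid transporter slif was more even, at 202, 227 and 253 CPM. Of the sugar and monocarboxylate carriers, CG6484 had 1968, 776 and 747 CPM, CG1213 had 1214, 386 and 385 CPM, CG4607 had 707, 220 and 185 CPM and CG1208 had 440, 151 and 103 CPM. All 4 were highest in replicate 1 and lowest in replicate 3. CG42235 of the same list, now called kumpel, had 64.6, 105 and 755 CPM, highest in replicate 3. The whole list held 0.499%, 0.215% and 0.312% of the counts. By column totals replicate 3 was highest for 10 and lowest for 5 of its 17 members above 10 CPM. Of all genes 66.7% were highest and 18.7% lowest there. The sterol transporter Npc1b, needed for uptake of dietary sterol, had 160, 118 and 625 CPM.

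Defence genes were few among the abundant transcripts. The group held 0.273%, 0.377% and 0.376% of the counts, a mean of 0.342% ± 0.0598 (SD, n = 3), with 32 of 116 genes above 10 CPM. None of the 20 antimicrobial peptide rows passed, and the list held 0.00042% of the counts, although 17 were detected. Def, at 2.57, 0.303 and 1.44 CPM, had the highest mean of the list. The most abundant defence gene was PGRP-SC2, an amidase that degrades peptidoglycan and dampens the Imd response, at 812, 1504 and 590 CPM, highest in replicate 2, and it held 49.1% of the counts of its list.

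The second amidase, PGRP-LB, had 102, 137 and 88.2 CPM. The receptors PGRP-LE, inside the cell, and PGRP-LC, at its surface, had 43.9, 46.6 and 56.1 CPM and 17.01, 19.3 and 36.7 CPM. The downstream factor Rel had 78.6, 124 and 114 CPM. PGRP-SC1a and PGRP-SC1b are near-identical copies with uncertain reads, and PGRP-SC1a had 1.39, 44.8 and 5.26 CPM. Of the Toll pathway, the adaptor Myd88 had 118, 87.1 and 123 CPM and the inhibitor cact 145, 142 and 82.5 CPM. Diedel3 had 409, 543 and 1229 CPM, lectin-37Db had 305, 282 and 269 CPM, and the antiviral nuclease AGO2 had 92.3, 116 and 143 CPM.

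The 4 other groups each held a larger share than defence and a smaller one than transport. Peritrophic matrix and mucin genes held 0.334%, 0.374% and 0.811%, with replicate 3 highest, and Muc68D led at 1749, 1225 and 3402 CPM. Mur18B had 794, 1491 and 2658 CPM and Muc11A 410, 415 and 1665 CPM, whereas Peritrophin-15a had 149, 134 and 97.8 CPM. Detoxification genes held 2.02% ± 0.181, led by the metallothionein MtnA at 1709, 1034 and 2649 CPM and the cytochrome P450 gene Cyp6d5 at 1636, 1413 and 1939 CPM. GstD1, a glutathione transferase, had 1209, 942 and 707 CPM. Nuclear genes of mitochondrial energy supply held 1.60% ± 0.101, led by blw, which encodes a subunit of ATP synthase, at 1476, 1352 and 1596 CPM. The cytoskeleton and brush border list held 1.15% ± 0.0874, led by the actin gene Act5C at 3782, 5073 and 2693 CPM. No row carries a mitochondrially encoded gene.

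The lists of all groups together held 52.9% ± 4.10 (SD, n = 3) of the counts and the remaining rows 47.1%. Of the most abundant unlisted genes, CG34220 and CG34324 are given by number only, and CG34324 had 14590, 13663 and 6265 CPM. CG10911 had 5368, 4088 and 3598 CPM. CG12057 had 1674, 6792 and 3672 CPM, with replicate 2 more than 4 times replicate 1. CG8997, CG7916 and CG7953 are neighbours on arm 2L with means of 3917, 3329 and 1773 CPM, each lowest in replicate 3. Among those with a described role, the chaperone Hsc70-4 had 3347, 3599 and 2714 CPM, the ribosome-bound scaffold Rack1 3626, 3691 and 2010 CPM, and Ance, a peptidase of the angiotensin-converting enzyme family, 1636, 1223 and 1393 CPM. The gene targeted elsewhere in the series, Rab11, had 248, 214 and 227 CPM in these wild-type libraries.

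Gene structure was described for the leading genes and for the function lists. The median exonic length was 1235 bases for 99 of the 100 leading genes with a match in the annotation, against 2304 for all genes above 10 CPM. Of the digestion genes above 10 CPM, 36.9% had no intron, against 7.10% of all genes above 10 CPM and 6.16% of translation genes. Among the 99 leading genes this share was 15.2%, and among all protein-coding genes 15.3%. Digestion genes also lay together. Of them, 64.1% had another digestion gene above 10 CPM as the next gene, against 4.27% of translation genes with a translation gene. The digestion lists were partly built from family names, so the 64.1% partly follows from how their members were chosen. Among the 99 leading genes, 24.2% had another of them as the next gene. Runs of digestion genes on arm 2L were Jon25Biii, Jon25Bii and Jon25Bi, and the mannosidases LManV and LManVI. On 2R they were alphaTry, epsilonTry and betaTry, and Mal-A6, Mal-A7 and Mal-A8. On 3L the run was Jon65Aiv and Jon65Aiii. On 3R they were Jon99Ciii, Jon99Cii and Jon99Ci, and CG31343, CG31233 and CG31198. Outside the digestion lists, runs were CG8997, CG7916 and CG7953 on 2L and Fer1HCH and Fer2LCH on 3R. Arm 2R, which holds the amylases and most of the trypsin and Mal genes, carried 29.9% ± 0.856 of the counts, against 17.9% for 2L, 17.6% for 3L, 20.6% for 3R and 12.4% for X.

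The spread between libraries was wider than counting error. The median CV over 5509 genes was 0.226, with quartiles of 0.131 and 0.371, whereas counting alone gives a median of 0.0428. It did not narrow with abundance: the median CV was 0.227 for genes from 10 to 100 CPM, 0.218 from 100 to 1000, 0.256 from 1000 to 10000 and 0.258 at or above 10000, where counting error alone gives 0.0024. In 1376 genes (25.0%) the highest library was at least 2 times the lowest, in 312 at least 4 times and in 82 at least 10 times. By group the median CV was 0.153 for mitochondrial energy, 0.197 for translation, 0.211 for cytoskeleton, 0.268 for defence, 0.301 for detoxification, 0.347 for digestion, 0.421 for transport and 0.534 for the 7 barrier genes. With replicates 1 and 2 alone the median CV over all genes was 0.1002, and with replicate 3 and either of the others it was 0.2345 or 0.239.

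**Figure D4:**
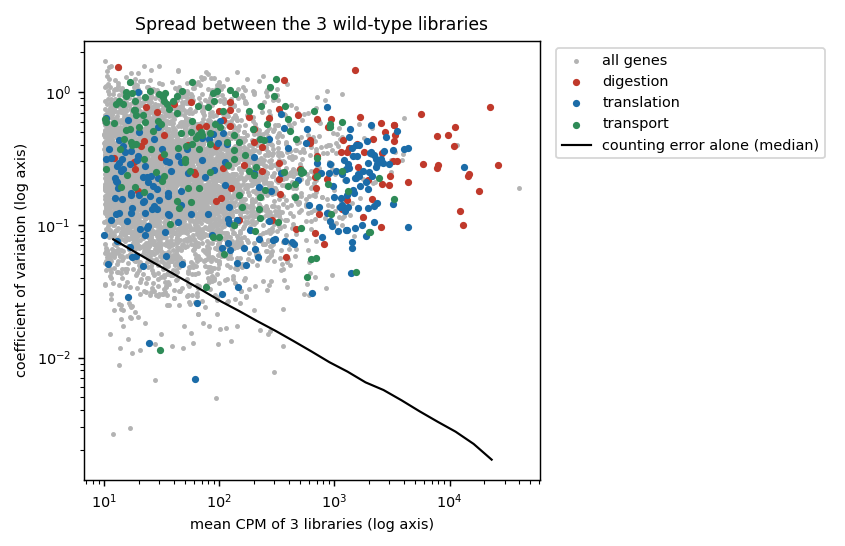
CV over the 3 libraries against mean CPM (both log axes) for genes at or above 10 CPM, with digestion, translation and transport genes coloured. The black line is the median CV that counting error gives at each level, and it falls with CPM while the measured CV stays near 0.226.

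Much of the spread lay between replicate 3 and the other libraries. Replicate 3 was the highest library for 3675 genes (66.7%), replicate 1 for 940 and replicate 2 for 894. That direction depends on the scaling, since a library with fewer reads in its leading genes has more left for the rest. By column totals the median gene was 0.35 higher in replicate 3 than in the mean of replicates 1 and 2 on the log2 scale, and with TMM scaling the median was -0.03 and replicate 3 was highest for 40.7%. Differences of replicate 3 are therefore given below relative to the median of all genes. Of the 30 leading genes, TMM changed the highest library only for Jon65Aiv and the lowest for CG34220, yip7, Ef2b and Jon74E.

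Relative to that median, transport genes were 0.55 higher in replicate 3 on the log2 scale, with 109 of 148 above it. Amino acid and peptide carriers were 0.81 higher (17 of 19), ABC transporters 0.74 higher (12 of 14) and ion pumps and metal carriers 0.64 higher (27 of 32). Sugar and monocarboxylate carriers were 0.69 higher (10 of 17). The minimum applies to the mean, for these lists and for all genes, so some members passed only through replicate 3. The amino acid carrier CG7888, at 2.77, 7.87 and 39.3 CPM, is one of them, and their number was not counted. The vacuolar ATPase stayed at the median, at -0.00472 (9 of 19 above). Cytosolic ribosomal proteins were at -0.83 with 11 of 84 above, carbohydrases at -1.59 with 3 of 22, and serine proteases at -0.48 with 10 of 46. Visceral muscle markers were 1.05 higher with 13 of 15 above, and Malpighian tubule markers 1.40 higher with 5 of 6. The muscle marker bt and the ion pump PMCA lie on chromosome 4, where 43 of the 44 genes above 10 CPM were highest in replicate 3. Gene length moved with the same ratio: across 5414 genes the Spearman correlation of exonic length with the log2 ratio of replicate 3 to 1 was 0.277, of 3 to 2 was 0.214 and of 2 to 1 was 0.0965. The median log2 ratio of replicate 3 to 1 was 0.14 for genes up to 1000 bases and 0.57 for those over 5000. These points share library and depth, and the parts of tissue content, length and platform were not tested.

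**Figure D5:**
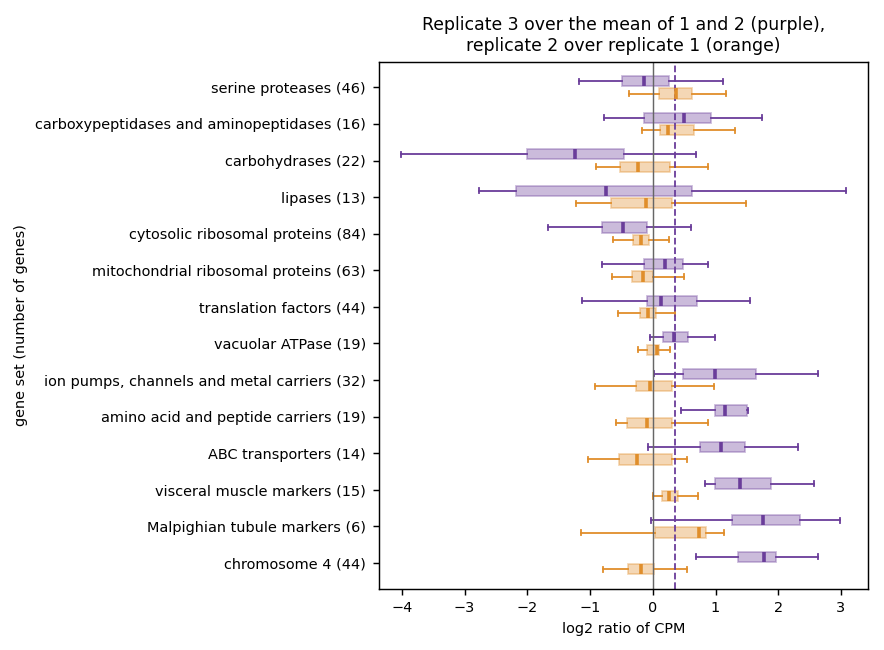
Log2 ratio of CPM in gene sets, for replicate 3 over the mean of replicates 1 and 2 (purple) and replicate 2 over replicate 1 (orange), with boxes for the quartiles, a bar for the median and whiskers to the last gene within 1.5 times the box length. The dashed line is the median of all genes, 0.35, and carbohydrases lie below it and visceral muscle markers above.

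Single genes differed far more than the groups. Among genes at 100 CPM or more, after Amy-d the largest CVs were those of CG1678, with 371, 0.202 and 54.9 CPM, CG14205, with 102, 15.04 and 599 CPM, and CG17752, with 36.8, 27.1 and 287 CPM. CG13905 had 13.8, 419 and 86.5 CPM, and CG11892 had 68.8, 193 and 900 CPM. The highest library was replicate 1, 3, 3, 2 and 3 for these genes in that order. The heat shock gene Hsp68 had 212, 1.41 and 600 CPM, and salt, a transporter on the Malpighian tubule list, had 52.3, 81.5 and 527 CPM. By column totals, 49 of the 82 genes with a 10-fold range were highest in replicate 3, 17 in replicate 2 and 16 in replicate 1. Of all genes, 66.7% were highest in replicate 3. With TMM replicate 3 was highest for 47 of the 82 and for 40.7% of all genes. The minimum applies to the mean, so some of the 82 passed only through a single library. Cyp4g1, at 0.0989, 0 and 30.5 CPM, did so through replicate 3, and Cyp6w1, at 0.0989, 84.5 and 5.85 CPM, through replicate 2.

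The steadiest genes at 100 CPM or more included Gclm, a subunit of the enzyme that begins glutathione synthesis, with 302, 297 and 300.2 CPM and a CV of 0.00775. The peptidase Dip-B had 358, 351 and 359 CPM, the lipid kinase PI4KIIIalpha 124, 127 and 126 CPM, and ATPsyn-Cf6 259, 267 and 266 CPM. KdelR, the receptor that returns proteins to the endoplasmic reticulum, had 117, 114 and 113 CPM, and CG12963, CG8184 and CG9350 completed the 8 genes of lowest CV. The CV of each of the 8 was below the one that counting error alone gives for its depth, and they are the lowest of 1301 genes. These CVs rest on column totals. By these the median gene was 0.35 higher in replicate 3 than in the mean of replicates 1 and 2 (log2). A gene even by column totals thus lay under the median gene in replicate 3, and its CV with TMM was not examined.

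At the 10 CPM minimum itself, the last genes taken in were E23, Mcr and CG10375, each at a mean of 10.01 CPM, and the first left out were GstD2, Rpb12 and CG32075, at 9.996, 9.986 and 9.975 CPM. Of the 5509 genes, 4861 reached 10 CPM in every library and 648 did not.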

How the data were processed

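Read counts by gene were deposited by the authors without normalization. STAR 2.4.2a, HTSeq 0.6.1, DESeq2 and the build BDGP5 are named in the submitters' processing notes. The counting mode and strand setting were not given, so an antisense or overlapping gene cannot be separated from its partner. CPM used library totals of 9906918 to 30610335 counts. Current names (15165 rows), arms and exonic lengths came from a BDGP6 annotation, and no coordinates are given because the builds differ. Rows without a length held 1.09% of counts. Genes were sorted into 32 function lists, each gene counted once, and 16 marker lists. Members and lists were chosen with earlier results of these data known, and 5 wrongly listed names were removed. Named genes were the 30 highest in CPM, the 15 highest per kb, up to 5 leaders per list, markers, the 12 most and 8 least variable at 100 CPM or more, and the 3 on either side of the minimum. Others (further unlisted, family and variable genes, and Rab11) were chosen after their values were seen. One group was described, so no test was run. Alternatives used TMM (edgeR 4.0.16) and DESeq2 1.42.0 size factors (R 4.3.3), other minima, per-kb shares, and each library left out. The CV calculation was tested on simulated data.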

Additional observations from a re-analysis of the deposited data

How the results depend on the processing

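No paired analysis was possible because only the wild-type group was described. The number of genes at 10 CPM was 5472 with TMM and 5474 with DESeq2 size factors, and 5225 to 5619 with 1 library left out. Per kb, the 20 leading genes held 31.02%, digestion 33.7%, translation 22.1% and transport 2.36%, which moved by more than 1 SD since these groups differ in gene length. Leaving out 1 library gave 25.1% to 27.5% for the 20 leading genes, 25.3% to 28.4% for digestion, 15.1% to 17.9% for translation, 3.39% to 4.08% for transport and 0.325% to 0.377% for defence. The median CV ranged from 0.1002 to 0.239 and the genes with a 2-fold range from 206 to 1116, and the lowest value of each came without replicate 3. At 100 CPM or more, 332 of 1301 genes (25.5%) had a 2-fold range. Replicate 3 was the highest library for 3675 genes by column totals, 2241 with TMM and 2096 with DESeq2 size factors, and the lowest for 1032, 2312 and 2443 (alternatives chosen after seeing the data). The other settings tried moved the number of genes at 10 CPM, the group shares, the share of the 20 leading genes, the median CV and the count with a 2-fold range by less than the spread or 1.5 times. Not run were a total without mitochondrially encoded genes, since no row holds one, and a count of proteases by protein motif. With 3 libraries of 1 group and an unknown platform for each, biological and technical spread cannot be told apart.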

Other observations

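The following genes were looked at after their values were seen. Genes on chromosome 4, the small arm, were higher in replicate 3. Of the 44 above 10 CPM, 43 were highest in replicate 3, against 66.7% of all genes, with a median log2 ratio to the mean of replicates 1 and 2 of 1.77, against 0.35 for all genes, and 1.40 with TMM scaling, an alternative chosen after seeing the data. The minimum applies to the mean, so some of these genes passed only through replicate 3, such as CG31999 with 5.14, 7.47 and 49.0 CPM. Others, such as RpS3A, were above it in every library. The chromosome held 0.347%, 0.281% and 0.786% of the counts. RpS3A, which encodes a ribosomal protein, had 1159, 850.2 and 2040 CPM there, and ATPsyn-beta had 983, 754 and 1784 CPM. The median exonic length of the chromosome 4 genes was 4450 bases. The 1075 genes of 3000 to 5000 bases on other arms had a median log2 ratio of 0.46. The part of length was not tested.

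Stress-inducible heat shock genes were far apart between libraries. The 14 rows named Hsp2x, Hsp67, Hsp68 and Hsp70 summed to 739, 9.99 and 2045 CPM, and all 7 of them above 10 CPM were lowest in replicate 2 and highest in replicate 3, against 41.8% and 66.7% of all genes by column totals. Hsp26 had 278, 2.22 and 664 CPM and Hsp27 175, 4.95 and 402 CPM. DnaJ-1, a co-chaperone, had 198, 29.6 and 530 CPM, and the constitutive Hsc70-4 was even, at 3347, 3599 and 2714 CPM. Hsp70Ba, at 3.96, 0 and 62.0 CPM, and Hsp70Ab, at 2.37, 0 and 30.8 CPM, are among the 7 but passed the minimum only through replicate 3. Reads of the near-identical Hsp70 copies are uncertain, so these copies are not separate members of the 7.

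A few abundant genes were at 0 in 1 library. CG14645 had 2228, 1247 and 0 CPM, and CG16826 had 347, 0 and 133 CPM, where 3 counts correspond to 0.098 CPM in replicate 3 and 0.303 CPM in replicate 2. The yolk protein gene Yp1 had 1.29, 131 and 136 CPM and Yp2 had 1.68, 51.3 and 85.0 CPM, whereas Yp3 had 49.96, 114 and 80.4 CPM. The male-specific RNA roX1 stayed at or under 1.57 CPM in every library.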
